A study of Mus musculus with 8 samples.

Results

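The genes of the proteasome were followed in the tibialis anterior of old mice, a leg muscle of mostly fast fibres. The members were the protein-coding rows of the expression table whose symbol starts with Psma, Psmb, Psmc, Psmd, Psme or Psmf and a digit. This rule gave 46 of 48328 rows, and 43 of them passed the expression filter of at least 1 FPKM in 4 or more of the 8 libraries, which 10521 rows passed in all. FPKM are fragment numbers scaled to the length of the transcript and to the mapped fragments of the library. By role, 8 members encode alpha subunits of the core, 8 its constitutive or tissue-specific beta subunits, 3 the immunoproteasome subunits, 6 the ATPases, 3 the other subunits of the base, 8 the lid, 3 assembly chaperones, and 6 activators or an inhibitor. The remaining match, Psmc3ip, encodes a protein of meiotic homologous pairing and no subunit, and it is kept apart from the roles. Counts and medians over all members, and the promoter counts, include it.

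The 4 K320E-skm mice express, in skeletal muscle, a dominantly acting mutant of Twinkle, which unwinds mitochondrial DNA for its replication. They were compared with 4 wild-type mice. All 8 animals were C57BL/6J aged 24 months, untreated as far as the labels say, and each genotype has both sexes among its labels. Total RNA came from the lower part of frozen muscle. The promoter that drives the mutant protein and the share of fibres that express it are not given in the sources. The labels do not say more about the origin of the samples, so p-values measure only the spread between these samples.

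The proteasome is the main protease of the cytosol and nucleus. Its barrel-shaped core of alpha and beta rings holds the catalytic sites. The regulatory particle, built of a base with an ATPase ring and of a lid, binds ubiquitin-tagged proteins, removes the tag and unfolds them into the core. In skeletal muscle this pathway degrades myofibrillar proteins, and its subunit genes are known to be induced together in several forms of atrophy. Nfe2l1 is the transcription factor that raises subunit transcription when proteasome capacity is short. Interferon signals replace the constitutive catalytic subunits by those of the immunoproteasome, which is abundant in immune cells.

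The libraries held between 10167 and 11581 genes at 1 FPKM or more, and their FPKM summed to between 731824 and 858029. Twnk, the Twinkle gene, had 3.82, 4.93, 5.06 and 4.66 FPKM in the K320E-skm libraries, against 2.16, 2.4, 2.21 and 2.7 FPKM in wild-type. Markers of fast fibres were high throughout, with Tnnt3, a fast troponin, at 6848 to 8307 FPKM in K320E-skm libraries and 9410 to 10397 FPKM in wild-type ones. The library K320E-skm 4 is labelled male, yet it had 10.2 FPKM of Xist and 0.0117 FPKM of the Y-linked Ddx3y, while the other 3 libraries labelled male had at most 0.0226 FPKM of Xist and at least 14.3 FPKM of Ddx3y. Mitochondrial ribosomal RNA took 46.9, 44.2, 46.7 and 41.5% of the FPKM sum in K320E-skm, against 31.2, 35.4, 37.5 and 37.5% in wild-type. FPKM are relative to everything mapped in a library, so the values of other genes can move with that share. Its part in the level of other genes was not tested. The median log2 fold change over all tested genes was -0.14. Library wild-type 1 stood apart in scale, with a median-ratio size factor of 1.28 beside 0.905 to 1.04 in the other 7 libraries. Results are therefore given on FPKM as deposited and, where this matters, on FPKM divided by these size factors, called rescaled, on which the median log2 fold change of all tested genes was 0.0.

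No member passed the adjusted threshold between K320E-skm and wild-type. The limma fit on log2(FPKM + 1), with Benjamini-Hochberg adjustment over the 10521 genes, called 0 of 43 members at an adjusted p under 0.05. The background was low as well, with 0.00950% of genes called higher and 0.00950% called lower in K320E-skm. At an unadjusted p under 0.05, 0 members were higher and 1 was lower, the activator gene Psme4, beside 1.12% of all tested genes higher and 12.0% lower. The libraries of the genotypes did not overlap for 0 members in the higher direction and for 1 in the lower, again Psme4, beside 0.333% and 9.59% of all tested genes. The members' median log2 fold change was -0.12, near that of all genes, with 6 members above 0 and 37 below. Of all 10521 tested genes, 2152 lay above 0 and 8369 below. On rescaled values the members' median was 0.04, with 29 members above 0 and 14 below, beside 5321 and 5200 of all tested genes. On this scale the libraries did not overlap for 1 member in the higher direction (Psmb5) and 0 in the lower, beside 2.91% and 2.98% of all tested genes. At an unadjusted p under 0.05, 2 members were then higher, Psmb5 and Psmb10, and 1 lower, Psme4, beside 5.19% of genes higher and 4.66% lower. Single libraries moved the counts as deposited. Without K320E-skm 2, 3 members were lower at an unadjusted p under 0.05 and 6 were lower without overlap, where 1173 and 1610 of the 10521 genes were. Without K320E-skm 3, 2 members were lower at this p, beside 626 of 10521 genes, and without wild-type 1, 1 was higher (Psmb10), beside 239 of 10521 genes. Members lower without overlap numbered 3 without wild-type 2, 2 without wild-type 3 and 3 without wild-type 4, beside 1750, 1754 and 1374 of the 10521 genes.

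The sum of FPKM over the 31 tested subunits of core, base and lid was 1358, 1569, 1204 and 1296 in K320E-skm, against 1665, 1396, 1383 and 1363 in wild-type. The genotypes overlapped, and the highest wild-type sum belonged to the library that stands apart in scale. Rescaled, the sums were 1492, 1544, 1330.0 and 1381 in K320E-skm, against 1302, 1339, 1423 and 1357 in wild-type, and they overlapped again. In bulk tissue, fewer cells of a type and less RNA per cell cannot be told apart.

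**Figure D1:**
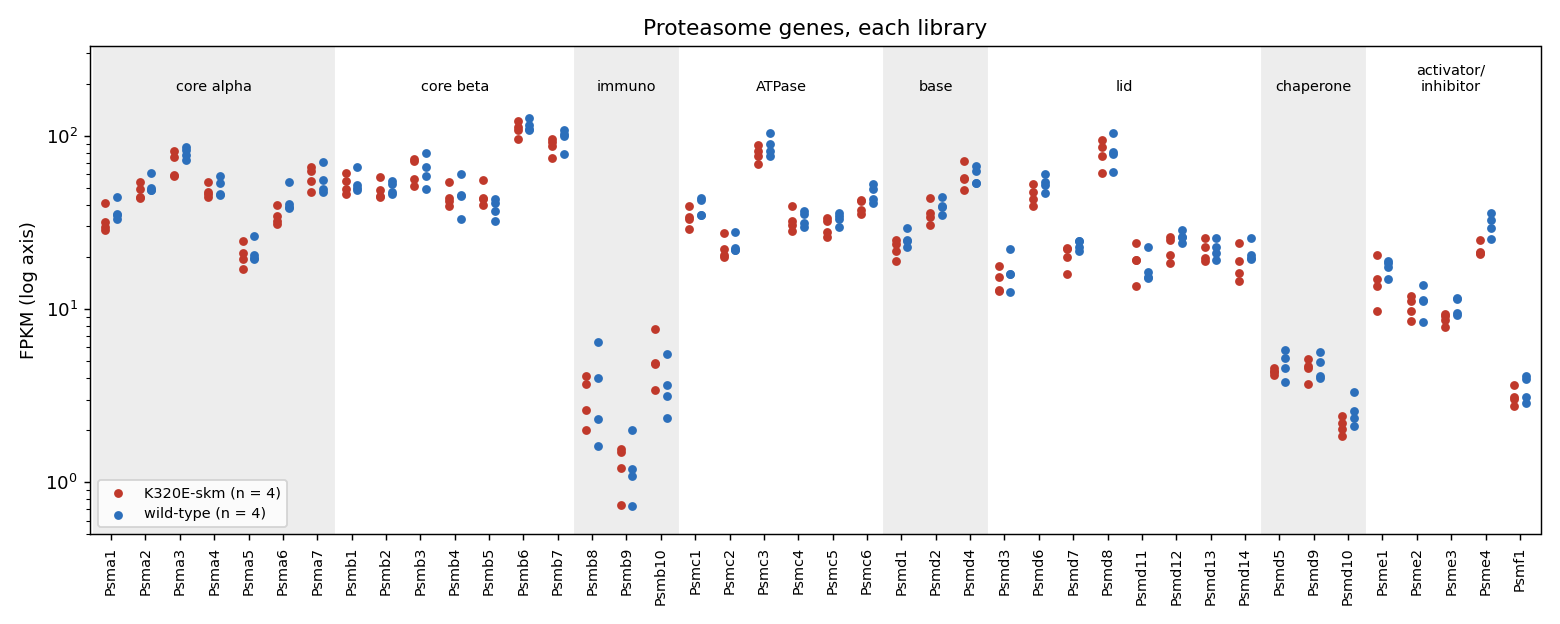
FPKM of each tested member except Psmc3ip in each library, on a log axis, grouped by role, with 4 K320E-skm points left of 4 wild-type points for each gene. The core, base and lid subunits lie between 15.6 and 112 FPKM on average, the immunoproteasome subunits between 1.25 and 4.42, and the points of the genotypes intermingle for all of them except Psme4.

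Promoter sequence is shown for 3 members, Psme4, Psmb5 and Psmb10, because they were the members with an unadjusted p under 0.05 after rescaling. The stretches run from 130 bases before to 20 bases after the annotated start, 5′ to 3′ on the strand of the gene, from RefSeq on GRCm38.p6, and capitals mark matches to TGACNNNGC on either strand, the core of the antioxidant response element that Nfe2l1 and its relatives bind. Psme4 is read from chr11:30771645-30771794 on the plus strand, Psmb5 from chr14:54617976-54618125 on the minus strand and Psmb10 from chr8:105938373-105938522 on the minus strand.
Psme4: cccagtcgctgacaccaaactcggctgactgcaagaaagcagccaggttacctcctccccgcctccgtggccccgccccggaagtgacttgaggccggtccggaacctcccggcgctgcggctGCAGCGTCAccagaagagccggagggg
Psmb5: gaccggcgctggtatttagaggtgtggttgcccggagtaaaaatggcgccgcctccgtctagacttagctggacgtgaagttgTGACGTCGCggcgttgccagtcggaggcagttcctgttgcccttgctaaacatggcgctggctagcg
Psmb10: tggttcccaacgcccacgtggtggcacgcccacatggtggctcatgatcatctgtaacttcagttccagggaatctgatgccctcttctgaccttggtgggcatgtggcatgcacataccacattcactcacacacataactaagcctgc

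The match begins 47 bases before the RefSeq start in Psmb5, on the strand of the gene, and 7 bases before it in Psme4, on the opposite strand. Psmb10 has none in this stretch. Starts differ between annotations, and in GENCODE, used here for gene coordinates, Psme4 begins at chr11:30771726, upstream of its match. A promoter entry was found for 39 of the 46 members. In the whole windows, from 250 bases before to 50 after the start, the letters TGACNNNGC occurred on either strand in 6 of the 39 (Psmb5, Psmb6, Psmc6, Psmd12, Psmd9 and Psme4), or 15.4%, beside 14.0% of 27025 genes. The CCAAT box, bound by the NF-Y complex, occurred on either strand in 15 of the 39, or 38.5%, beside 41.1% of all genes. Both shares were near those of all promoters of the same length, and a match is a string of letters, not a measured binding site.

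The alpha subunits form the outer rings of the core and gate the entry of substrates. The median log2 fold change of the 7 that passed the filter was -0.12, and 0.06 after rescaling. Psma3 was the most abundant, with 75.5, 81.2, 58.5 and 59.5 FPKM in K320E-skm, against 86.0, 82.5, 72.4 and 77.6 FPKM in wild-type. The ranges overlapped, and the log2 fold change was -0.22 (SE 0.15, limma adjusted p = 0.524). Psma5 was the least abundant, with 20.9, 24.7, 19.4 and 16.9 FPKM in K320E-skm, against 26.3, 19.7, 20.4 and 19.5 FPKM in wild-type. Its values overlapped, with the highest in wild-type 1 and the lowest in K320E-skm 4, and a log2 fold change of -0.07 (SE 0.16, limma adjusted p = 0.856). Psma6 had the second smallest unadjusted p of all members, with 31.0, 39.95, 32.3 and 34.4 FPKM in K320E-skm, against 54.0, 38.9, 38.5 and 40.4 FPKM in wild-type. Only K320E-skm 2 reached into the wild-type range, and the means were 34.4 ± 3.96 FPKM in K320E-skm libraries and 42.9 ± 7.41 FPKM in wild-type ones (SD, n = 4 each). The log2 fold change of Psma6 was -0.30 (SE 0.16, limma unadjusted p = 0.0807, adjusted p = 0.419), and the exact two-sided permutation test of the means gave p = 0.0857. Without wild-type 1 it was -0.18, and rescaled it was -0.13 (SE 0.09, limma unadjusted p = 0.215, adjusted p = 0.695). Over all alternatives its limma adjusted p lay between 0.299 and 0.728. Psma7 was the alpha subunit with a value above 0, at 0.06, and Psma1, Psma2 and Psma4 lay between -0.17 and -0.08. Psma8, the alpha subunit of the testis proteasome, did not pass the filter, with means of 0.0299 FPKM in K320E-skm libraries and 0.0192 FPKM in wild-type ones.

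The beta subunits form the inner rings, and 3 of them, encoded by Psmb5, Psmb6 and Psmb7, carry the catalytic sites. For the 7 tested constitutive beta members, the median log2 fold change was -0.03, and 0.15 after rescaling. All 7 lay above 0 on the rescaled values, beside 5321 of all 10521 tested genes. Psmb6, the caspase-like site, was the most abundant of all members, with 108, 122, 95.8 and 112 FPKM in K320E-skm, against 126, 115, 109.5 and 108 FPKM in wild-type. It was above 97.2% of tested protein-coding genes in mean level, and its coefficient of variation over the 8 libraries, 8.4%, was the smallest of the tested members. Its log2 fold change was -0.07 (SE 0.14, limma adjusted p = 0.824). Psmb7, the trypsin-like site, had 92.3, 96.3, 74.0 and 87.4 FPKM in K320E-skm, against 108, 78.9, 102 and 100.1 FPKM in wild-type. The 1 low wild-type library lay within the K320E-skm range, and the log2 fold change was -0.15 (SE 0.15, limma adjusted p = 0.65). Psmb1, Psmb2, Psmb3 and Psmb4, which carry no catalytic site, lay between -0.04 and 0.00. Psmb11, the catalytic subunit of the thymus proteasome, did not pass the filter, with means of 0.0214 FPKM in K320E-skm libraries and 0.0365 FPKM in wild-type ones.

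Psmb5 encodes the chymotrypsin-like site, the target of clinical proteasome inhibitors. It had 43.8, 55.3, 43.0 and 39.7 FPKM in K320E-skm, against 43.1, 32.3, 36.9 and 41.2 FPKM in wild-type. The means were 45.4 ± 6.79 FPKM in K320E-skm libraries and 38.4 ± 4.79 FPKM in wild-type ones (SD, n = 4 each), and the ranges overlapped through K320E-skm 3 and 4 and wild-type 1 and 4. As deposited, its log2 fold change was 0.24 (SE 0.15, limma unadjusted p = 0.158, adjusted p = 0.503), and the exact two-sided permutation test gave p = 0.171. Rescaled, it had 48.1, 54.4, 47.5 and 42.4 in K320E-skm, against 33.7, 31.0, 38.0 and 41.0 in wild-type, with no overlap. On this scale the log2 fold change was 0.41 (SE 0.12, limma unadjusted p = 0.0103, adjusted p = 0.376). Over all alternatives its adjusted p lay between 0.354 and 0.728, and its log2 fold change between 0.13 and 0.41, so the adjusted threshold was missed in each. The exact permutation p of the rescaled means was 0.0286, the smallest that 4 against 4 libraries allow.

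A ratio of FPKM of members within a library does not depend on its scale. A difference in log2(FPKM + 1) still depends on it through the added 1. Relative to the median of the other core, base and lid subunits on the log2(FPKM + 1) scale, Psmb5 stood at 0.23, 0.36, 0.30 and 0.12 in K320E-skm, against -0.28, -0.34, -0.12 and -0.02 in wild-type, without overlap. Psme4 stood at -0.96, -0.77, -0.75 and -0.78 in K320E-skm, against -0.53, -0.61, -0.26 and -0.48 in wild-type, also without overlap. Measured this way, 1 of 43 members was higher without overlap (Psmb5) and 2 were lower (Psme4 and Psma6), beside 1.52% of tested genes higher and 3.23% lower. The ratio of Psmb5 to Psmb7 FPKM was 0.474, 0.574, 0.581 and 0.455 in K320E-skm, against 0.399, 0.410, 0.361 and 0.411 in wild-type, with no overlap. The ratio of Psmb5 to Psmb6 was 0.405, 0.453, 0.449 and 0.355 in K320E-skm, against 0.341, 0.280, 0.337 and 0.382 in wild-type, and here K320E-skm 4 and wild-type 4 crossed. The separation of Psmb5 thus held against one catalytic partner and not against the other. These ratios and differences are descriptions, and no test was run on them.

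**Figure D2:**
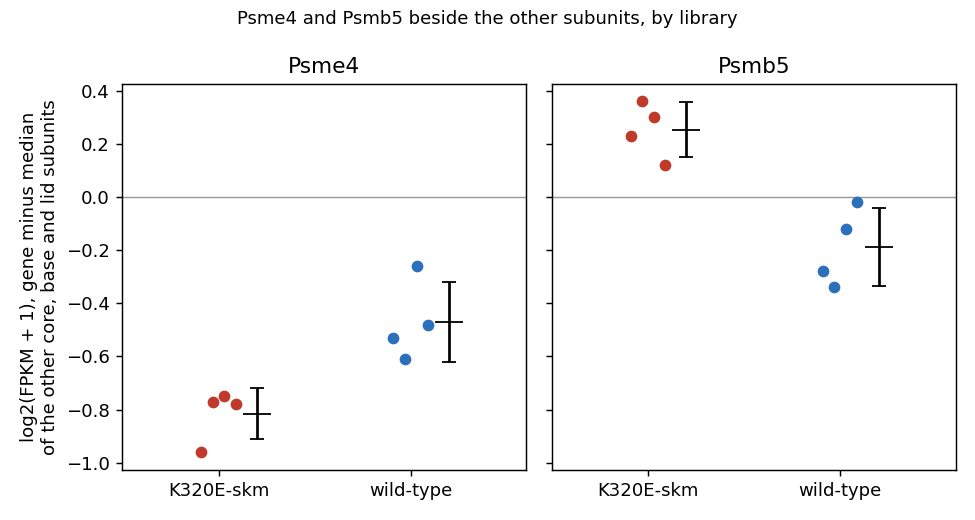
Level of Psme4 and of Psmb5 minus the median of the other core, base and lid subunits in the same library, in log2(FPKM + 1), with 1 point per library, and with group means and their SD beside the points, K320E-skm left of wild-type. The 4 K320E-skm points of Psme4 lie at or below -0.75 and all wild-type points at or above -0.61, while the K320E-skm points of Psmb5 lie at or above 0.12 and all wild-type points at or below -0.02.

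The immunoproteasome subunits were low and varied more between animals than any other role, with no separation of the genotypes. Psmb8, which replaces Psmb5, had 4.12, 2.63, 3.69 and 2.0 FPKM in K320E-skm, against 6.44, 3.99, 1.61 and 2.31 FPKM in wild-type. The wild-type libraries alone covered the whole range, and the log2 fold change was -0.07 (SE 0.32, limma adjusted p = 0.924). Psmb9, which replaces Psmb6, had 1.5, 1.2, 1.55 and 0.734 FPKM in K320E-skm, against 2.0, 1.19, 0.73 and 1.08 FPKM in wild-type. Both means were 1.25 FPKM, and the log2 fold change was 0.01 (SE 0.19, limma adjusted p = 0.983). Psmb10, which replaces Psmb7, had 4.82, 4.9, 7.63 and 3.41 FPKM in K320E-skm, against 5.49, 3.63, 2.35 and 3.13 FPKM in wild-type. The highest library was K320E-skm 3 and the lowest wild-type 3. The log2 fold change of Psmb10 was 0.41 (SE 0.24, limma unadjusted p = 0.115, adjusted p = 0.458), the largest positive value among the members. It was 0.57 (SE 0.21, limma unadjusted p = 0.0279, adjusted p = 0.451) after rescaling, 0.66 without wild-type 1 and 0.24 without K320E-skm 3, and its adjusted p lay between 0.424 and 0.79 over all alternatives.

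Coefficients of variation over the 8 libraries were 46.7% for Psmb8, 37.7% for Psmb10 and 34.4% for Psmb9, while the constitutive core members lay between 8.4% and 18.6%. As a share of each catalytic pair, Psmb8 made up 8.6, 4.54, 7.91 and 4.78% of Psmb8 plus Psmb5 FPKM in K320E-skm, against 13.0, 11.0, 4.18 and 5.32% in wild-type. Psmb10 made up 4.96, 4.84, 9.35 and 3.76% of Psmb10 plus Psmb7 in K320E-skm, against 4.84, 4.40, 2.25 and 3.04% in wild-type. Psmb9 made up between 0.651 and 1.59% of Psmb9 plus Psmb6 in K320E-skm, against 0.662 to 1.56% in wild-type. All 3 together made up 3.85 ± 1.40% of the 6 catalytic members in K320E-skm and 3.23 ± 1.30% in wild-type (SD, n = 4 each). The transcripts of the constitutive sites thus made up most of the pool in every library, and the shares overlapped for each pair.

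The immunoproteasome members varied with immune genes across both genotypes. Their FPKM summed to 10.4, 8.73, 12.9 and 6.15 in K320E-skm, against 13.9, 8.81, 4.69 and 6.53 in wild-type. The partners of antigen processing, such as the light chain B2m and the invariant chain Cd74, summed to 259, 166, 295 and 146 FPKM in K320E-skm, against 282, 296, 114 and 154 FPKM in wild-type. Macrophage and myeloid markers summed to 146, 117, 106 and 50.6 FPKM in K320E-skm, against 144, 104, 46.8 and 48.2 FPKM in wild-type. The libraries lowest in immunoproteasome members (wild-type 3, K320E-skm 4 and wild-type 4) were also the lowest in both other sums. Lymphocyte markers summed to between 0.699 and 2.49 FPKM in K320E-skm and 0.434 and 5.35 FPKM in wild-type, and 0 of 8 passed the filter. The part of immune cells in the level of Psmb8, Psmb9 and Psmb10 was not tested. Psmb9 overlaps Tap1, the peptide transporter gene, on the opposite strand, and the strand setting of the quantification is not stated, so their values are uncertain.

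**Figure D3:**
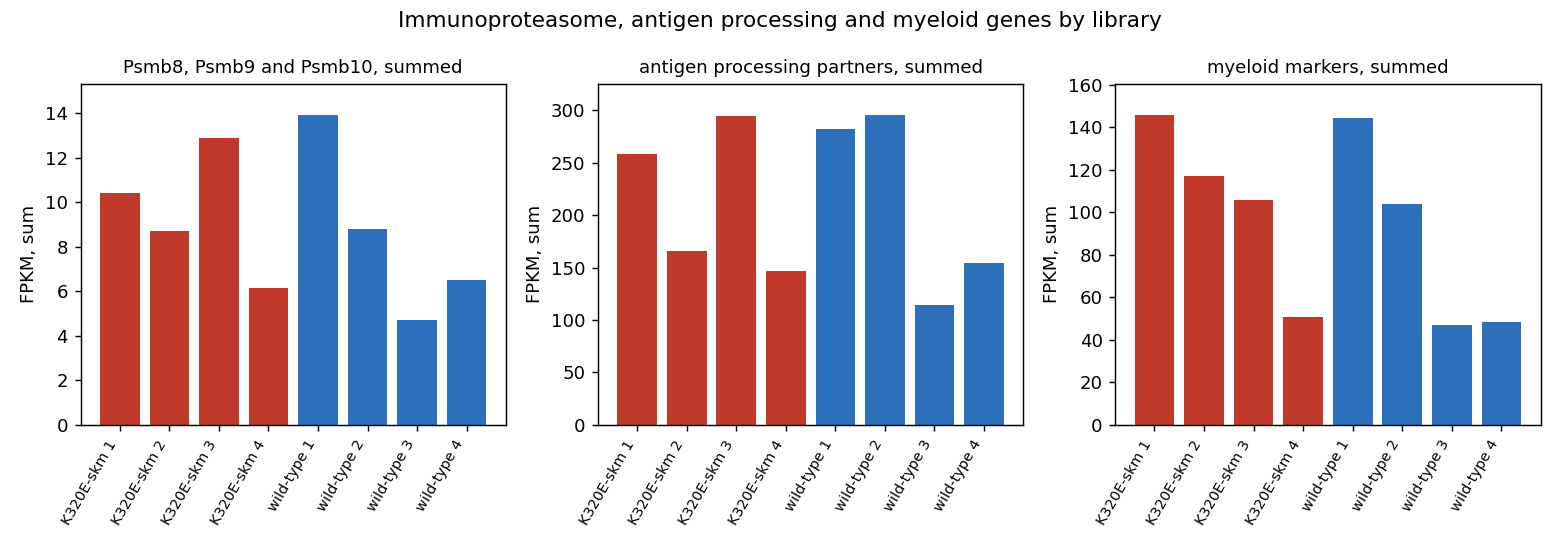
Sum of FPKM per library over the immunoproteasome members, the antigen processing partners and the macrophage and myeloid markers, as bars starting at 0 with K320E-skm libraries left of wild-type libraries. The immunoproteasome sum runs from 6.15 to 12.9 in K320E-skm and from 4.69 to 13.9 in wild-type, and wild-type 3 and 4 and K320E-skm 4 have the lowest bars.

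The 6 ATPases form the ring of the base that unfolds substrates. All 6 had a log2 fold change below 0 as deposited, beside 8369 of all 10521 tested genes. Their median was -0.16, and 0.02 after rescaling. Psmc3 was the most abundant, with 81.2, 88.4, 68.8 and 76.8 FPKM in K320E-skm, against 90.0, 104, 76.5 and 82.0 FPKM in wild-type. The log2 fold change was -0.16 (SE 0.15, limma adjusted p = 0.637). Psmc6 had 42.5, 42.0, 35.5 and 37.3 FPKM in K320E-skm, against 52.5, 49.4, 40.9 and 42.9 FPKM in wild-type. The upper K320E-skm libraries lay among the lower wild-type ones, and the log2 fold change was -0.23 (SE 0.14, limma adjusted p = 0.474). Psmc2, the least abundant, had 20.6, 27.4, 19.9 and 22.2 FPKM in K320E-skm, against 27.7, 21.8, 22.6 and 22.0 FPKM in wild-type, with a log2 fold change of -0.07 (SE 0.15, limma adjusted p = 0.848). Psmc1, Psmc4 and Psmc5 lay between -0.20 and -0.03.

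The other members of the base scaffold the particle and bind ubiquitin. Psmd4, a ubiquitin receptor, had 56.1, 71.3, 48.8 and 56.7 FPKM in K320E-skm, against 66.6, 62.6, 53.3 and 53.3 FPKM in wild-type. The means of 58.3 ± 9.44 FPKM in K320E-skm libraries and 58.9 ± 6.71 FPKM in wild-type ones (SD, n = 4 each) were nearly equal. Psmd1, a scaffold, had 18.9, 25.0, 21.5 and 23.7 FPKM in K320E-skm, against 29.5, 24.8, 22.9 and 24.9 FPKM in wild-type. The ranges overlapped through K320E-skm 2 and 4, and the log2 fold change was -0.19 (SE 0.14, limma adjusted p = 0.549). Psmd2, the other scaffold, averaged 36.0 FPKM in K320E-skm, against 39.3 FPKM in wild-type.

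The lid removes the ubiquitin chain. For its 8 members, the median log2 fold change was -0.19, and -0.01 after rescaling. Psmd8 was the most abundant, with 95.1, 85.9, 60.8 and 76.4 FPKM in K320E-skm, against 103, 78.9, 80.4 and 61.5 FPKM in wild-type. Both genotypes spanned nearly the same range, with a log2 fold change of -0.02 (SE 0.17, limma adjusted p = 0.96). Psmd3 was the least abundant, with 12.8, 17.7, 12.8 and 15.4 FPKM in K320E-skm, against 22.1, 12.6, 16.0 and 15.9 FPKM in wild-type. Psmd7, a scaffold partner of the deubiquitinase, had 15.9, 22.4, 19.8 and 22.3 FPKM in K320E-skm, against 24.5, 24.7, 22.7 and 21.5 FPKM in wild-type. The log2 fold change of Psmd7 was -0.22 (SE 0.14, limma adjusted p = 0.504), and the overlap came from wild-type 4. Psmd12 had 18.5, 25.9, 20.6 and 25.1 FPKM in K320E-skm, against 28.5, 23.9, 26.1 and 26.02 FPKM in wild-type, also with a log2 fold change of -0.22 (SE 0.15, limma adjusted p = 0.513). Psmd14, the deubiquitinase itself, averaged 18.3 FPKM in K320E-skm, against 21.3 FPKM in wild-type. Psmd11, a lid scaffold, was the lid member with a log2 fold change above 0, at 0.11 (SE 0.17, limma adjusted p = 0.774), and Psmd6 and Psmd13 lay at -0.21 and -0.02.

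Psmd5, Psmd9 and Psmd10 encode chaperones that help assemble the base and leave the finished particle. They were expressed well below the subunits of core, base and lid. Psmd5 had 4.41, 4.18, 4.31 and 4.56 FPKM in K320E-skm, against 5.8, 4.55, 3.8 and 5.22 FPKM in wild-type. All 4 K320E-skm libraries lay inside the wild-type range, and the log2 fold change was -0.11 (SE 0.13, limma adjusted p = 0.71). Psmd10 (gankyrin) had 1.86, 2.42, 2.19 and 2.04 FPKM in K320E-skm, against 3.3, 2.35, 2.59 and 2.1 FPKM in wild-type, with a log2 fold change of -0.19 (SE 0.13, limma adjusted p = 0.537). Psmd9 averaged 4.51 FPKM in K320E-skm, against 4.68 FPKM in wild-type.

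Activators dock to the ends of the core in place of the regulatory particle, and Psmf1 encodes an inhibitor. All 5 tested members of this role had log2 fold changes below 0 as deposited, with a median of -0.23, beside 8369 of all 10521 tested genes below 0. After rescaling, 2 of the 5 lay above 0, with a median of -0.06, beside 5321 of all tested genes. The summed FPKM of the 5 was 56.1, 58.4, 64.6 and 56.9 in K320E-skm, against 84.0, 67.3, 71.1 and 71.2 in wild-type, without overlap. Psme4, the most abundant of them, was the only 1 of the 5 whose own libraries did not overlap. Rescaled, the sums were 61.6, 57.5, 71.3 and 60.6 in K320E-skm, against 65.7, 64.5, 73.1 and 70.9 in wild-type, and they overlapped.

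Psme4 encodes PA200, a large nuclear activator known for the degradation of acetylated histones. The gene (ENSMUSG00000040850) lies on the plus strand of chr11:30771726-30880361 (GRCm38). It had 21.1, 25.1, 20.7 and 21.3 FPKM in K320E-skm, against 36.0, 25.2, 32.7 and 29.2 FPKM in wild-type. All 4 K320E-skm libraries lay below all 4 wild-type libraries, with K320E-skm 2 and wild-type 2 almost touching. The means were 22.1 ± 2.05 FPKM in K320E-skm libraries and 30.8 ± 4.63 FPKM in wild-type ones (SD, n = 4 each). The log2 fold change was -0.46 (SE 0.14, limma unadjusted p = 0.01, adjusted p = 0.313), and the exact two-sided permutation test gave p = 0.0286, the smallest it can give. By its unadjusted p the gene ranked 333 of 10521. Rescaled, Psme4 had 23.2, 24.7, 22.9 and 22.7 in K320E-skm, against 28.2, 24.2, 33.6 and 29.1 in wild-type. Here wild-type 2 lay within the K320E-skm range, the log2 fold change was -0.28 (SE 0.11, limma unadjusted p = 0.036, adjusted p = 0.477), and the exact permutation p was 0.0571. The log2 fold change was -0.39 without wild-type 1 and -0.41 without K320E-skm 4. Over all alternatives it lay between -0.55 and -0.28, with adjusted p between 0.227 and 0.702. Summed fast-fibre markers moved in the same direction as Psme4, at 27056 to 35942 FPKM in K320E-skm against 36682 to 39417 FPKM in wild-type. Rescaled, these sums overlapped, at 26627 to 39498 in K320E-skm against 30825 to 39382 in wild-type, and their part in the level of Psme4 was not tested.

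Psme1, Psme2 and Psme3 encode the PA28 family, of which the products of Psme1 and Psme2 form the interferon-induced activator and that of Psme3 a nuclear one. Psme1 had 13.7, 9.73, 20.6 and 14.9 FPKM in K320E-skm, against 18.5, 18.98, 14.9 and 17.5 FPKM in wild-type. The K320E-skm libraries spread on both sides of the wild-type range, and the log2 fold change was -0.27 (SE 0.20, limma adjusted p = 0.559). It was -0.46 without K320E-skm 3, -0.06 without K320E-skm 2 and -0.10 after rescaling, with limma adjusted p between 0.406 and 0.915 over all alternatives. Psme2 had 9.79, 11.1, 11.9 and 8.55 FPKM in K320E-skm, against 13.8, 8.46, 11.2 and 11.3 FPKM in wild-type. Its log2 fold change was -0.10 (SE 0.17, limma adjusted p = 0.799). Psme3 had 7.9, 9.36, 8.61 and 9.16 FPKM in K320E-skm, against 11.6, 11.5, 9.47 and 9.26 FPKM in wild-type. The overlap was 1 library deep, and the log2 fold change was -0.23 (SE 0.13, limma adjusted p = 0.452), with an exact permutation p of 0.0571. Rescaled, the log2 fold change of Psme3 was -0.06. Psmf1, the inhibitor PI31, had 3.64, 3.12, 2.75 and 3.03 FPKM in K320E-skm, against 4.1, 3.11, 2.87 and 3.95 FPKM in wild-type, with a log2 fold change of -0.12 (SE 0.14, limma adjusted p = 0.696). Psme2b, a near copy of Psme2, did not pass the filter, with 0.602, 0.59, 0.606 and 0.581 FPKM in K320E-skm, against 0.8, 1.13, 0.834 and 0.868 FPKM in wild-type. These values do not overlap, but reads of Psme2 and Psme2b can be split between the copies by the quantification, so they are uncertain.

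**Figure D4:**
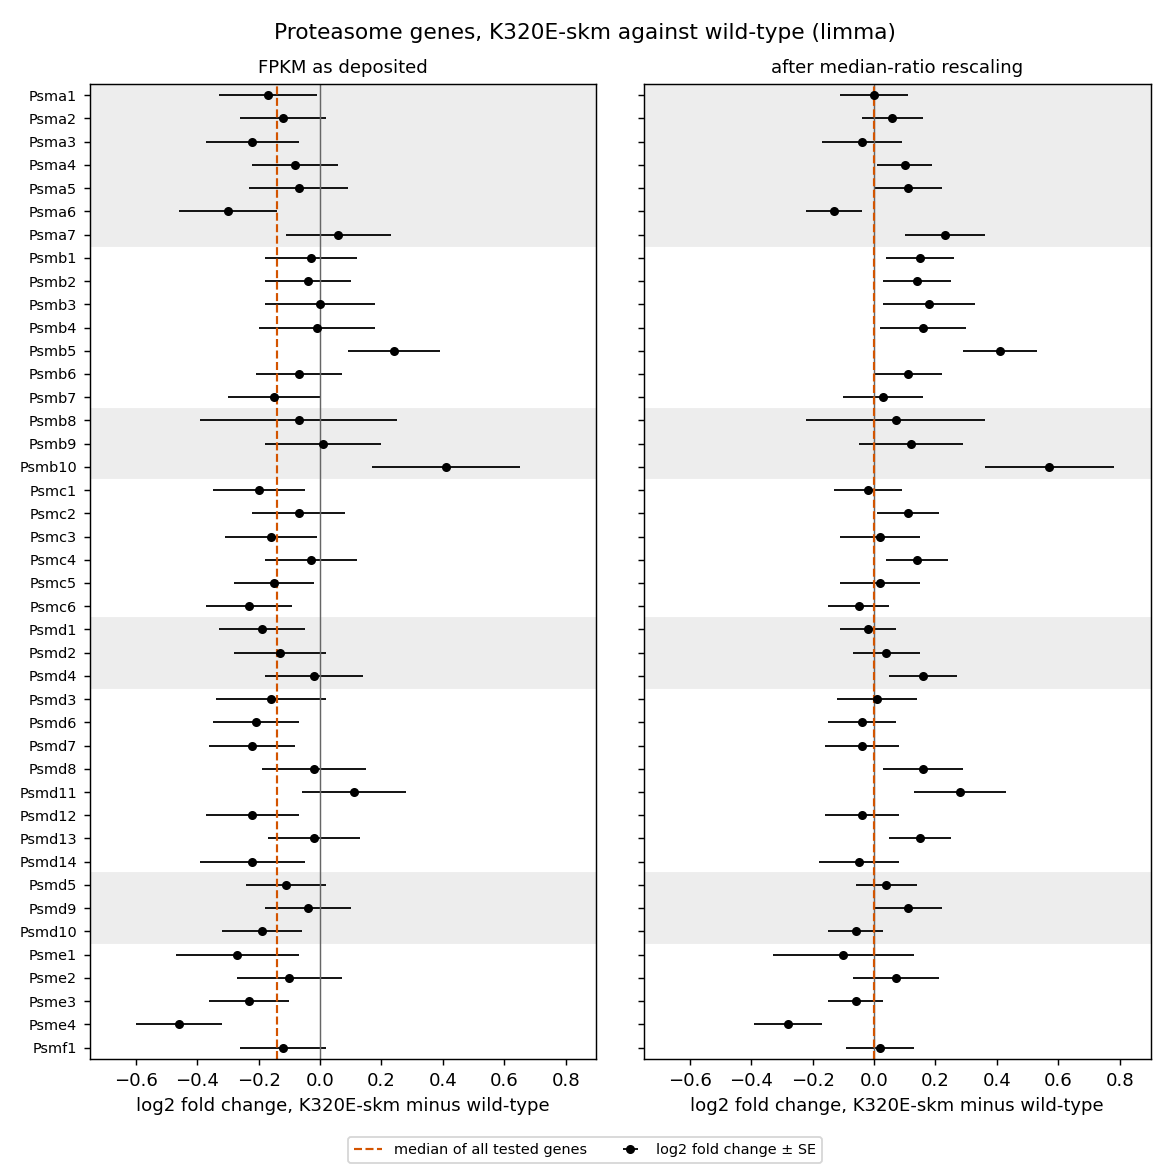
Log2 fold change of each tested member except Psmc3ip, K320E-skm minus wild-type, with its standard error from limma, on FPKM as deposited and after median-ratio rescaling, with a dashed line at the median of all tested genes. As deposited, most points lie below 0 around a median of all tested genes of -0.14, and rescaled, most lie above 0 around a median of 0.0, with Psme4 at the low end and Psmb10 and Psmb5 at the high end of both panels.

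Among the members of core, base and lid, the roles mixed in the order of levels. The most abundant core, base or lid member exceeded the least abundant 7.16-fold in mean FPKM, from Psmb6 at 112 to Psmd3 at 15.6. Adjacent members in this order, such as Psma2, Psmb2, Psma4 and Psmd6 at 49.4 to 49.9 FPKM, did not differ beyond their spread of 4.95 to 6.58 FPKM (SD over 8 libraries). After the library median was subtracted, the median pairwise correlation over the 8 libraries was 0.42 among the constitutive core members, 0.30 among the members of base and lid, and 0.85 among the 3 immunoproteasome members. These correlations rest on 8 points that share library composition, and they are descriptions. The 5 other protein-coding genes whose pattern over the 8 libraries was most like the mean of the core subunits, of 9557 ranked, were Sec13 (r = 0.953), Ddx41 (r = 0.942), Slc28a2 (r = 0.931), Acp1 (r = 0.93) and Cdpf1 (r = 0.929).

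Other genes of the pathway gave few low p-values. Of 14 assembly and associated factors, 0 were higher and 2 lower at an unadjusted p under 0.05, with a median log2 fold change of -0.14. These were Ecpas, a proteasome adaptor, with 26.4, 30.7, 31.7 and 31.8 FPKM in K320E-skm against 40.7, 36.7, 36.6 and 37.4 FPKM in wild-type, and Uchl5, a deubiquitinase of the particle. Ecpas had a log2 fold change of -0.32 (SE 0.12, limma adjusted p = 0.346), and Uchl5 had one of -0.35 (SE 0.14, limma adjusted p = 0.353). The libraries of both genes did not overlap as deposited. Rescaled, both overlapped, at -0.14 for Ecpas and -0.20 for Uchl5, and 0 of the 14 factors had an unadjusted p under 0.05. Of 11 tested regulators of proteasome genes, 0 were higher and 3 lower, Nfyb, Nfya and Ddi2, with a median of -0.04. Nfyb, a subunit of NF-Y, had 5.66, 5.07, 4.83 and 5.71 FPKM in K320E-skm, against 10.1, 6.4, 7.57 and 6.32 FPKM in wild-type, with a log2 fold change of -0.42 (SE 0.13, limma adjusted p = 0.31). Its partner Nfya had -0.38 (SE 0.14, limma adjusted p = 0.339), and Ddi2, the protease that activates the Nfe2l1 product, had -0.38 (SE 0.15, limma adjusted p = 0.346). Nfe2l1 itself had 74.1, 115, 91.7 and 125 FPKM in K320E-skm, against 119, 121, 82.3 and 89.0 FPKM in wild-type, with a log2 fold change of -0.03. After rescaling, 2 regulators were higher at an unadjusted p under 0.05, Mafk (0.51) and Maff (0.55), small Maf partners of Nfe2l1. At this p 2 were lower, Nfya (-0.26) and Nfyb (-0.27), beside 5.19% of all tested genes higher and 4.66% lower on that scale. Rescaled libraries of Maff, Nfya and Nfyb overlapped. Those of Mafk did not, with K320E-skm 2 at 11.1 and the rest of its genotype at 5.30 to 6.99. Rescaled, Ddi2 lay at -0.21 (SE 0.09, limma unadjusted p = 0.0536), without overlap.

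Of 14 ubiquitin shuttles and members of the VCP complex, 0 were higher and 1 lower at an unadjusted p under 0.05, Ubxn7, a VCP cofactor, at -0.26 (SE 0.11, limma adjusted p = 0.368), with a median of -0.15. Of 10 ubiquitin, E1 and recycling genes, 0 were higher and 0 lower, with a median of -0.04. Rps27a, which encodes ubiquitin fused to a ribosomal protein, had 131, 108, 99.6 and 93.8 FPKM in K320E-skm, against 119.95, 92.3, 107 and 88.5 FPKM in wild-type. The ranges overlapped, and its log2 fold change was 0.08 (SE 0.15). Of 8 tested antigen processing partners, 0 were higher and 0 lower, with a median of 0.05, and B2m and Cd74 had 0.09 (SE 0.34) and 0.17 (SE 0.40). Each of these counts is on FPKM as deposited. They stand beside the 1.12% of all tested genes that were higher and the 12.0% that were lower at this p. Among the marker lists, 3 of 8 tested fast-fibre markers were lower (Pvalb, Mybpc2 and Actn3, at -0.76, -0.48 and -0.53), 1 of 6 endothelial markers was lower (Emcn, at -0.41), and 0 of 11 myeloid and 0 of 6 fibroblast markers had an unadjusted p under 0.05. Rescaled, 1 fast-fibre marker was lower at this p, Pvalb at -0.57, while Mybpc2 and Actn3 lay at -0.30 and -0.35 and overlapped. On that scale 1 of 11 myeloid markers was higher, Cd68 at 0.90 with overlap. For endothelial markers 1 of 6 was lower, Emcn at -0.25 without overlap, and 0 of 6 fibroblast markers had such a p. At this p and scale, 1 of the 14 shuttle and VCP genes was higher, Nploc4 at 0.24 with overlap, and 0 were lower. Ubxn7 lay at -0.14, without overlap. Of the 10 ubiquitin, E1 and recycling genes, 1 was higher and 0 were lower, with a median of 0.14. Their summed rescaled FPKM was 623, 594, 603 and 544 in K320E-skm, against 489, 421, 528 and 483 in wild-type, without overlap. These rescaled counts stand beside 5.19% of all tested genes higher and 4.66% lower. Endothelial markers summed to between 34.8 and 46.0 FPKM in K320E-skm and 42.6 and 55.8 FPKM in wild-type, and fibroblast markers to between 199 and 305 FPKM in K320E-skm and 181 and 500.5 FPKM in wild-type. Psmc3ip, the match that encodes no subunit, averaged 1.05 FPKM in K320E-skm, against 1.34 FPKM in wild-type, with a log2 fold change of -0.18 (SE 0.15, limma adjusted p = 0.596).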

How the data were processed

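The deposited table gives FPKM for 48328 Ensembl IDs in 8 libraries. Per the submitters' processing notes, reads were processed with TopHat2 2.0.10, Cufflinks 2.1.1 and CASAVA on mm10. The annotation and strand setting are not stated there. Symbols and coordinates came from GENCODE M21, which matched 47864 IDs and left 464 unmatched, and promoters from RefSeq (GRCm38.p6). All 8 columns matched a sample, and 0 pairs of libraries were identical.

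Genes with 1 FPKM or more in at least 4 libraries were tested as log2(FPKM + 1), with a pseudocount of 1, using limma 3.58.1 (R 4.3.3) in a two-sided test of genotype beside the sex label, with trended empirical Bayes, adjusted by Benjamini-Hochberg over all tested genes. Fold changes of low genes are understated on this scale. The table holds no counts, so absolute depth is unknown and no counting interval is given. The steps between very low values put the deepest library at 1.30 times the depth of the shallowest. For means of single genes, an exact two-sided permutation test ran over the 70 assignments of 4 against 4 libraries. Alternatives were quantile normalization, rescaling by median ratios, no filter or one at 5 FPKM, 0.1 as the pseudocount, robust empirical Bayes, leaving out the sex term or each library, and a replicate block.

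Values per library are given for the catalytic subunits, activators, inhibitor, the most and least abundant member of each role and the 8 smallest unadjusted p. Of other lists, up to 3 genes per direction with p under 0.05, or else the 2 most abundant, are named. A gene that this rule would name is not reported here. Maff, Mafk, the Psmb5 ratios and the remaining members given by single values were picked with their values in view. The members and lists were chosen with earlier results of these data known.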

Additional observations from a re-analysis of the deposited data

Results flagged for a closer look

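Among 86 groups of 4 libraries, 1 for each genotype and tested member, 6 held a value whose gap to its nearest neighbour exceeded Dixon's critical share of the group's range, and chance flags about 1 in 20 such groups. For Psme4, K320E-skm 2 had 25.1 FPKM, above the other K320E-skm libraries, and without it the log2 fold change was -0.55. For Psmd11, wild-type 2 had 22.8 FPKM, above the other wild-type libraries. Library wild-type 1 was the high value in the other 4, with 54.0 FPKM for Psma6, 60.6 FPKM for Psma2, 26.3 FPKM for Psma5 and 27.7 FPKM for Psmc2, and it is also the library with the size factor of 1.28.

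Among the 4 pseudogene rows with a matching symbol, which were left out, Psmb7-ps2 on chromosome X had at most 0.106 FPKM, in K320E-skm 2, and at most 5.25e-06 FPKM in wild-type. Cufflinks can divide fragments among near copies, so such values are uncertain.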

How the results depend on the processing

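No alternative called a member at an adjusted p under 0.05, and the count of called genes over the whole table was 2, or 1 with no filter, 1 with a filter of 5 FPKM, and 2 to 3 on leaving out each library. Members with an unadjusted p under 0.05 were 2 higher under median-ratio rescaling and 2 under quantile normalization, against 0 as deposited, and 0 to 1 on leaving out a library (1 without wild-type 1). Beside them, 546 and 508 of all 10521 tested genes were higher under these 2 scalings, and 72 to 239 on leaving out a library. Lower ones were 1 as deposited, 2 with no filter, beside 2129 of 27723 genes, and 1 to 3 on leaving out a library (3 without K320E-skm 2 and 2 without K320E-skm 3), beside 626 to 1803 of 10521 genes. Members higher without overlap were 1 under rescaling and 1 under quantile normalization, beside 306 and 291 genes. Lower ones were 0 under rescaling, beside 314 genes, 2 with no filter, where Psme2b joined, beside 1425 of 27723 genes, and 1 to 6 on leaving out a library (6 without K320E-skm 2, 3 without wild-type 2 and 3 without wild-type 4), beside 1039 to 1754 of 10521 genes. The median log2 fold change became 0.06 under rescaling and 0.04 under quantile normalization for core alpha, 0.02 and -0.01 for the ATPases, and -0.06 and -0.08 for activators and inhibitor, and 0.04 under rescaling for the other base members. Among the tested members given per library, signs turned under rescaling, to 0.11 for Psma5, Psmb6 and Psmc2, 0.16 for Psmd4 and Psmd8, 0.07 for Psmb8 and Psme2, 0.04 for Psmd5, 0.03 for Psmb7, 0.02 for Psmc3 and Psmf1, and 0.01 for Psmd3. Under quantile normalization they turned to 0.09 for Psma5, 0.02 for Psmb6 and Psmf1, 0.07 for Psmb8 and Psmd8, 0.10 for Psmc2, 0.11 for Psmd4, 0.03 for Psmd5 and 0.05 for Psme2. Members not given per library, such as Psmb1, turned as well. Of all 43 tested members, 37 lay below 0 as deposited, 14 under rescaling and 18 under quantile normalization. Both alternatives remove the shift of all genes between libraries. On leaving out each library, the value ran from -0.18 to 0.05 for Psma5, -0.36 to 0.25 for Psmb8, -0.12 to 0.20 for Psmb9, -0.18 to 0.02 for Psmc2, -0.14 to 0.07 for Psmd4, -0.13 to 0.06 for Psmd8 and -0.23 to 0.02 for Psme2. The share of the 3 immunoproteasome members differed by 0.00 to 1.13 percentage points on leaving out a library, against 0.62 with all.

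Replicate numbers are shared by the genotypes in the titles, and deviations of same-numbered libraries correlated at 0.156, 0.0233, 0.0442 and 0.0395. K320E-skm 1, 2 and 3 each correlated best with the wild-type library of the same number. K320E-skm 4 correlated best with wild-type 2, at 0.0905. The labels do not say whether the numbers mark pairs, and these low values do not decide it. When these numbers entered as a block and the sex term was dropped, 2 genes and 0 members were called, and 1 member was lower at an unadjusted p under 0.05, as without the block. Leaving out the sex term, which library K320E-skm 4 contradicts, gave the same 3 counts. Read from Xist and Ddx3y, K320E-skm 1 was the only male-like library of its genotype, against wild-type 1 and wild-type 3. No fit with sex read in this way was run. With 4 libraries per genotype and standard errors near 0.15 on the log2 scale, even Psme4, at -0.46 with a standard error of 0.14, was not called, so shifts of this size in subunit genes could go uncalled, and the lack of a call does not show equal levels.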
